A study of Mus musculus with 2 samples.

Results

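Lin28a, Lin28b, Hmga1, Hmga2, Igf2bp1, Igf2bp2 and Igf2bp3 are the 7 genes described here. They were taken by symbol from the 24062 genes counted in the series, and all 7 had counts in both libraries. RNA was sequenced from CD31+ KITint cells of the aorta of C57BL6 mouse embryos at embryonic day 11, which the labels name haematopoietic progenitor cells. The cells were sorted on Gata2Venus, a fluorescent reporter of the transcription factor gene Gata2 that the labels call a transgene, into a Gata2Venus-negative and a Gata2Venus-positive group, and the labels name no other allele or agent. Each group is 1 library, and the number of embryos behind each is not given in the sources used here. No difference between the groups therefore has a replicate check or a p-value, and all intervals are exact 95% intervals of counting error alone. The series title speaks of Gata2-independent progenitors, and the comparison asks which transcripts set cells without the reporter apart from cells with it.

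LIN28A and LIN28B are RNA-binding proteins that bind the precursors of let-7 microRNAs and keep them from maturing. Mature let-7 silences mRNAs whose 3′ untranslated regions (UTRs) pair with its seed, and Hmga2 and the Igf2bp genes are well-known targets, as are the LIN28 genes themselves. HMGA1 and HMGA2 are architectural chromatin proteins that bend AT-rich DNA, and the IGF2BP proteins bind mRNAs such as those of Igf2 and Actb and alter their stability and transport. In mice the genes are used widely in the embryo, and Lin28b and Hmga2 are known for their part in the self-renewal of fetal haematopoietic stem cells.

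The shared feature of the 7 genes that was looked for outside the counts was a let-7 seed match. The mature let-7 sequences are shown because they define it. They come from RefSeq (GRCm38.p6), and capitals mark the seed, bases 2 to 8. Of the 11 mature family members found, miR-98 included, 10 share the seed GAGGUAG and let-7j alone has another.
mmu-let-7a-5p: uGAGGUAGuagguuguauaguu
mmu-let-7d-5p: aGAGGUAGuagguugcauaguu
mmu-let-7g-5p: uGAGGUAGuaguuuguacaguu
mmu-let-7j: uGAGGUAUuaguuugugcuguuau

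Each of the 7 genes held at least 1 match to that seed (CTACCTC, searched on the transcript strand only) in the 3′ UTR of its longest coding transcript in GENCODE vM21, the annotation of mm10. Such a match is found in 9.13% of the 19279 3′ UTRs of genes in the table. Longer UTRs hold more, so UTRs within 20% of the same length are the closer comparison, and of these 7.92% held a match for Hmga1 (1178 bases) and 33.7% for Igf2bp1 (6337 bases), the lowest and highest shares of the 7. Lin28b, Hmga2 and Igf2bp1 had 4 matches each, Lin28a had 2, and Hmga1, Igf2bp2 and Igf2bp3 had 1 each. In 9 of the 17 matches the next base was A, which gives the 8-base match CTACCTCA. The windows of 30 bases below show 1 match for each gene and the second one of Lin28a, with the match in capitals.
Lin28a, chr4:134005181-134005210, minus strand: cacagcctgttgaaCTACCTCAtttttgcc
Lin28a, chr4:134004543-134004572, minus strand: agatcgccacaaacCTACCTCActgtgttg
Lin28b, chr10:45381014-45381043, minus strand: cccgggcgggaagtCTACCTCAtgcaagca
Hmga1, chr17:27563278-27563307, plus strand: cctctgttcacaaaCTACCTCtggacggtt
Hmga2, chr10:120364216-120364245, minus strand: ccgacattcaatttCTACCTCAgcatcagt
Igf2bp1, chr11:95961770-95961799, minus strand: ctgtgcgaagtaaaCTACCTCAaggtgtga
Igf2bp2, chr16:22059465-22059494, minus strand: cacacaaataaaagCTACCTCAggtgtttt
Igf2bp3, chr6:49086779-49086808, minus strand: gcatttttactcaaCTACCTCAggtattca

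**Figure D1:**
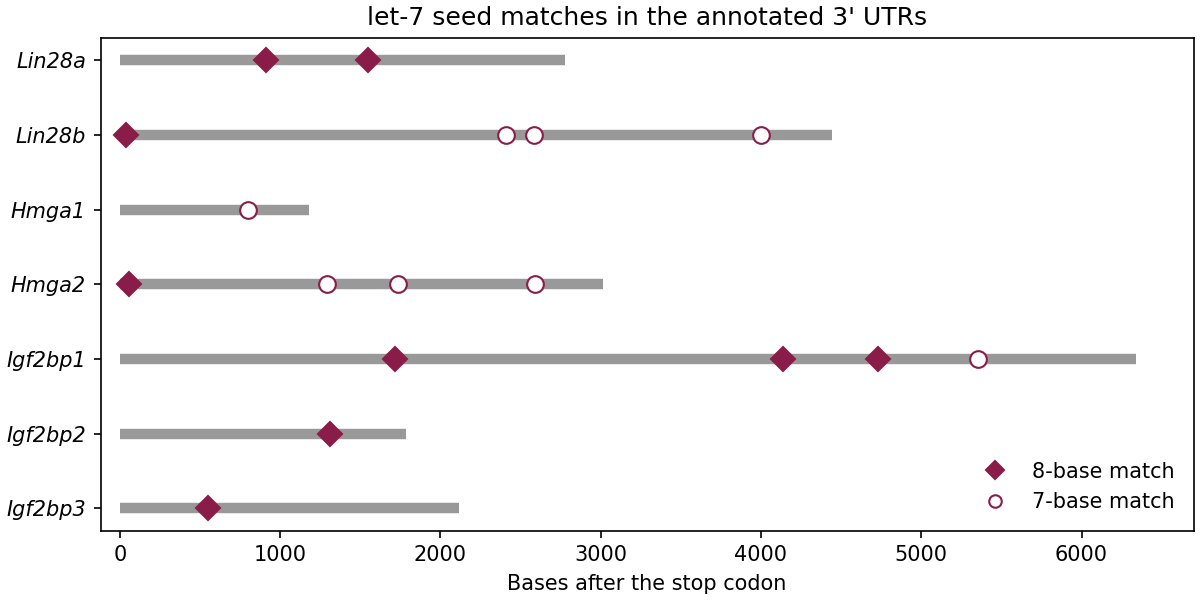
Positions of let-7 seed matches in the annotated 3′ UTR of the 7 genes, in bases after the stop codon. Grey bars are the UTRs, filled diamonds 8-base matches and open circles 7-base matches. All 7 UTRs hold at least 1 match, and Lin28b and Hmga2 have their 8-base match 36 and 58 bases after the stop codon.

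The matches are descriptions of sequence and were not measured as sites. The libraries gave no reading of let-7 itself: all 14 rows for let-7 precursor genes stood at 0 counts in both. The exact upper limit for such a row is 0.354 CPM (counts per 1000000) in negative against 0.390 CPM in positive cells. Reads over hairpin genes give no level of the mature microRNAs.

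Counts in genes totalled 10135400 in negative against 9715131 in positive cells. Gata2 was 5.18-fold lower in the negative library (negative 13.5, positive 70.2 CPM), the direction of the sort, Kit was 3.28-fold higher (negative 199, positive 60.7 CPM), and Pecam1, which encodes CD31, stood at 537 CPM in negative against 489 CPM in positive cells. The label of haematopoietic progenitors is borne out by its markers in part. Of 16 listed progenitor genes 14 had counts in at least 1 library. Among them Runx1 had 21 counts in negative against 303 in positive cells, and Lmo2 550 in negative against 1308 in positive cells. In the negative library Myb, Gfi1, Gfi1b, Spn and Hlf were at 0 counts, and in the positive library Gfi1 and Spn. Summed levels of marker lists were 888 CPM in negative against 1449 CPM in positive cells for 16 progenitor genes, 7922 CPM (negative) and 4943 CPM (positive) for 16 mesenchymal and smooth muscle genes, and 2801 CPM (negative) and 5662 CPM (positive) for 14 endothelial genes. They were 218 CPM (negative) and 1111 CPM (positive) for 11 macrophage genes and 90.7 CPM (negative) and 482 CPM (positive) for 9 megakaryocyte genes. For 14 erythroid genes they were 333 CPM (negative) and 306 CPM (positive), and for 10 coelomic and urogenital genes 120 CPM (negative) and 89.2 CPM (positive). The erythroid sums were mostly the embryonic globins Hbb-y, Hbb-bh1 and Hba-x, none past the rule. Of 7 erythroid genes that could be called 4 were lower in negative cells and 0 higher (median −2.59), and Gata1, the erythroid transcription factor gene, had 0 counts in negative against 351 in positive cells. Other sums also rest on abundant genes, and Cd34 alone gave 455 CPM (negative) and 759 CPM (positive) of the progenitor sums. Of 12 progenitor genes that could be called 6 were lower in negative cells and 1, Kit, was higher. Of 3 coelomic and urogenital genes 1, Gata4, was higher (negative 318, positive 1 count) and 0 lower. Over all genes that could be called, 15.2% were higher and 14.9% lower. In bulk libraries fewer cells of a type and less RNA per cell cannot be told apart.

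Among the 7 genes Lin28a stood out: it was 12.8-fold higher in the Gata2Venus-negative library, while its paralogue Lin28b and the other 5 genes lay within 2-fold of equal expression. The rule of size asked for 10 CPM and 50 counts on the higher side and for a ratio whose exact 95% interval was clear of 2-fold. All 7 genes reached the 10 CPM and 50 counts. By this rule 1 of the 7 was higher in the negative library, against 15.2% of the 10381 genes that could be called, and 0 of 7 were lower, against 14.9%. Both counts are near those shares, so they do not set the 7 genes apart as a group. Their median log2 ratio, always that of negative over positive, was −0.19 and that of all genes that could be called −0.0023. Without Hmga1, whose level is uncertain, the median of the other 6 was 0.17. Lin28b, Hmga2 and Igf2bp1 also had ratios below equal expression, and Lin28a, Igf2bp2 and Igf2bp3 had ratios above it. The direction of the median thus comes from a near-even split and does not rest on Hmga1 alone.

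**Figure D2:**
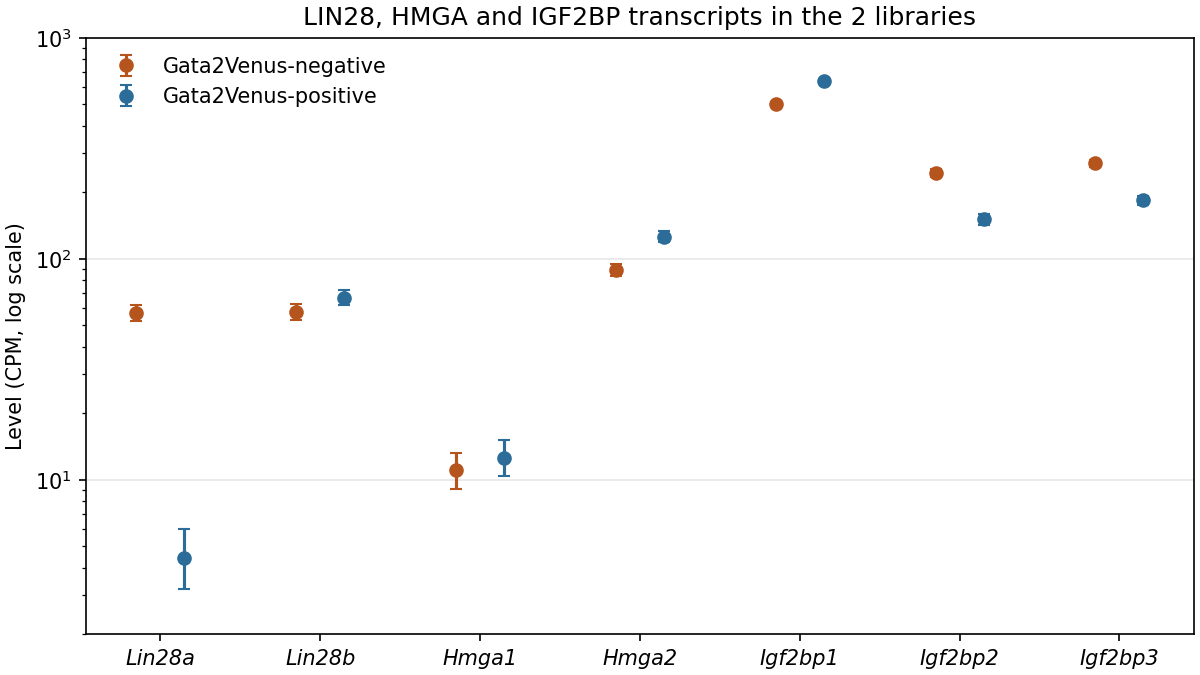
Levels of the 7 genes in CPM on a log scale in the Gata2Venus-negative (left point of each pair) and Gata2Venus-positive library, with exact 95% Poisson intervals. Lin28a stands at 56.9 CPM in negative against 4.44 CPM in positive cells; the pairs of the other 6 genes lie within 2-fold of each other.

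Lin28a (ENSMUSG00000050966.9, chromosome 4, 134003330 to 134018841, minus strand) had 592 counts in negative against 42 in positive cells. That is 56.9 CPM (interval 52.4 to 61.6) in negative against 4.44 CPM (interval 3.20 to 6.003) in positive cells, a log2 ratio of 3.68 (interval 3.23 to 4.17). Of 3062 genes with a mean level of 20 to 50 CPM, 69 (2.25%) had a ratio as high as Lin28a and 144 (4.70%) one as far from equal expression in either direction. Lin28a was past the rule under each of the 11 other settings tried, several of which could not have changed this. A non-coding gene on the opposite strand, Gm13061, shares 4.72% of the distinct 50-base stretches of Lin28a transcripts, and since the use of strand in counting is not given, its reads cannot be told from those of Lin28a there.

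Lin28b (ENSMUSG00000063804.8, chromosome 10, 45376620 to 45486395, minus strand), the paralogue best known from fetal blood stem cells, had 599 counts in negative against 631 in positive cells. Its levels were 57.5 CPM in negative and 66.7 CPM in positive cells, a log2 ratio of −0.21 (interval −0.38 to −0.05), well inside 2-fold. The LIN28 pair thus had a different make-up in each library. Lin28a held 49.7% of the counts of both genes in the negative library (exact binomial interval 46.8 to 52.6%) and 6.24% in the positive library (interval 4.53 to 8.34%). Per kilobase of exon, Lin28a made up 69.2% of the level of the pair in negative against 13.1% in positive cells. Summed, the pair stood at 114 CPM in negative and 71.2 CPM in positive cells.

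Most germ cell markers were, like Lin28a, higher in the negative library, as were 1582 of all 10381 genes that could be called. LIN28A is expressed in mouse primordial germ cells, which lie near the aorta at this stage and carry KIT and CD31, the surface proteins on which both groups were gated. Of 18 germ cell markers 15 could be called, and 12 of those were higher in negative cells and 0 lower. Over all genes that could be called the shares were 15.2% and 14.9%. The summed level of the 18 markers was 833 CPM in negative against 134 CPM in positive cells. Dppa4, Sox2, Dnd1, Dazl, Prdm14 and Mael were at 0 in the positive library, and Mael was at 0 in the negative library as well. Pou5f1, the pluripotency and germ line transcription factor gene, had 870 counts in negative against 59 in positive cells (log2 ratio 3.74, interval 3.36 to 4.15). That ratio is close to the one of Lin28a, but the median of the 15 markers that could be called was 5.78. Log2 ratios of the markers past the rule ran from 1.88 (Alpl) to 9.80 (Dppa3). Dppa3 had 983 counts in negative and 1 in positive cells, Utf1 970 in negative and 16 in positive cells, and Prdm14, a regulator of germ cell specification, 526 in negative and 0 in positive cells. Nanog (negative 133, positive 57 counts), Prdm1 (negative 109, positive 133 counts) and Ifitm3 (negative 1456, positive 634 counts) could be called and were not past the rule. The part of germ cell RNA in the difference of Lin28a was not tested.

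**Figure D3:**
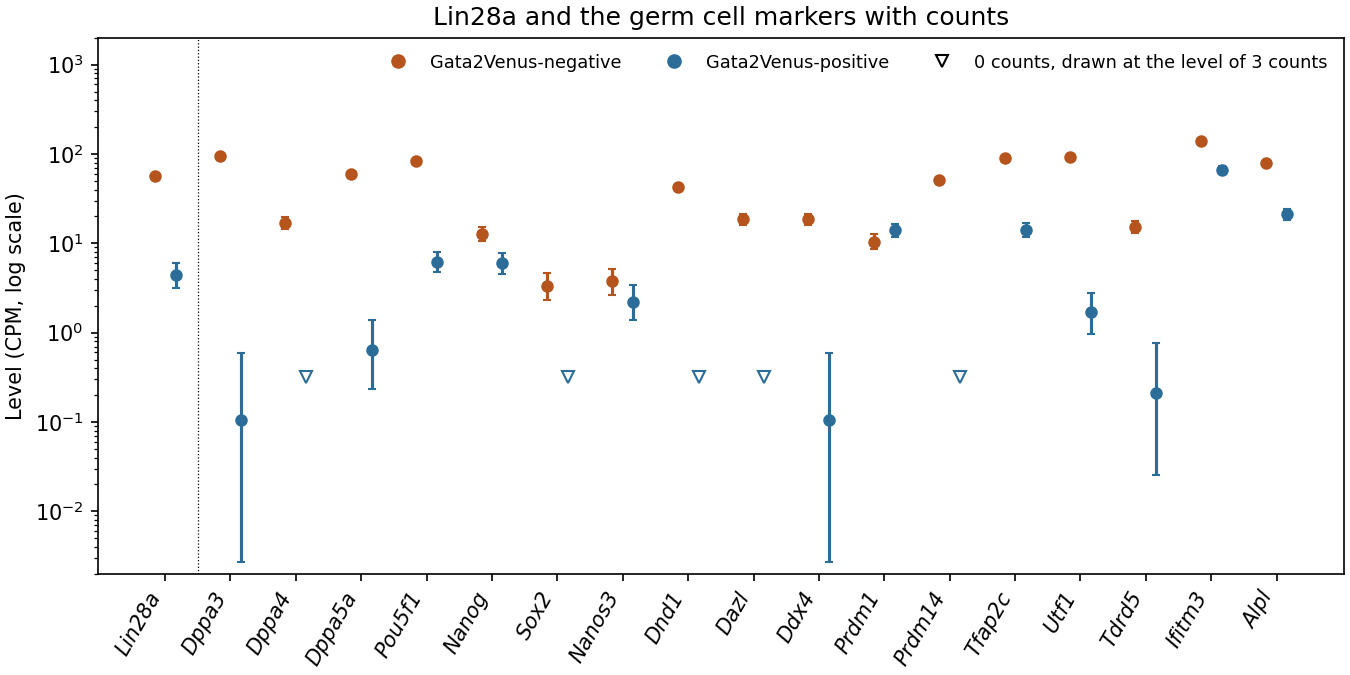
Levels of Lin28a (left of the dotted line) and of the 17 germ cell markers with counts, in CPM on a log scale, with exact 95% Poisson intervals; in each pair the Gata2Venus-negative library is on the left. Open triangles are markers at 0 counts, drawn at the level of 3 counts. Of the 17 markers, Prdm1 alone has its higher value in the positive library.

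Hmga2 (ENSMUSG00000056758.14, chromosome 10, 120361275 to 120476469, minus strand) had 926 counts in negative against 1190 in positive cells, or 88.9 CPM in negative and 126 CPM in positive cells. Its log2 ratio was −0.50 (interval −0.63 to −0.38), an interval that leaves out equal expression but does not reach 2-fold. Among 1519 genes at a mean level of 100 to 200 CPM, 45.4% differed by as much. The row Hmga2-ps1, a pseudogene by its symbol, had 70 counts in negative against 0 in positive cells, and at 6.72 CPM it was below the filter. Hmga1 (ENSMUSG00000046711.16, chromosome 17, 27556497 to 27563674, plus strand) had 115 counts in negative against 119 in positive cells, the lowest of the 7 in negative cells. Its levels were 11.0 CPM (interval 9.12 to 13.3) in negative and 12.6 CPM (interval 10.4 to 15.1) in positive cells, which overlap, and its log2 ratio of −0.19 (interval −0.57 to 0.19) does not leave equal expression. The Hmga1 level is uncertain. Of its distinct 50-base stretches 55.0% also occur in the copy Hmga1b on chromosome 11, and alignments that are not unique, 45.5% of the negative and 48.2% of the positive table, were assigned to no gene. On the opposite strand AI413582 overlaps its exons, with 119 counts in negative against 267 in positive cells.

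By CPM per kilobase of exon the IGF2BP genes ranked highest of the 7 in both libraries. In the positive library, however, the interval of Igf2bp2 overlapped that of Hmga2, and by the longest transcript Hmga2 stood above Igf2bp2. The make-up of the IGF2BP genes differed between the libraries while their sum was nearly equal. Together they had 1014 CPM in negative against 969 CPM in positive cells (log2 ratio 0.07, interval 0.03 to 0.11). Igf2bp1 (ENSMUSG00000013415.9, chromosome 11, 95957163 to 96005940, minus strand), known for binding Actb and Igf2 mRNA, had 5208 counts (500 CPM) in negative and 6000 counts (634 CPM) in positive cells, a log2 ratio of −0.34 (interval −0.40 to −0.29). Igf2bp2 (ENSMUSG00000033581.17, chromosome 16, 22059009 to 22163299, minus strand), the family member that remains most widely expressed in adult mouse tissue, had 2539 counts (244 CPM) in negative and 1424 counts (151 CPM) in positive cells. Its log2 ratio was 0.70 (interval 0.60 to 0.79). Igf2bp3 (ENSMUSG00000029814.10, chromosome 6, 49085223 to 49214957, minus strand), an RNA-binding protein of fetal rather than adult tissues, had 2813 counts (270 CPM) in negative and 1736 counts (184 CPM) in positive cells, a log2 ratio of 0.56 (interval 0.47 to 0.64). None of the 3 was past the rule, and genes of like level often differed by as much: 43.6% of 181 genes above 500 CPM for Igf2bp1, 31.3% of 1519 genes for Igf2bp2 and 29.9% of 768 genes at 200 to 500 CPM for Igf2bp3. Malsu1, on the opposite strand, shares 18.1% of the 50-base stretches of Igf2bp3 and had 497 counts in negative and 326 in positive cells. Per kilobase, Igf2bp1 made up 43.9% of the family in negative against 60.5% in positive cells, Igf2bp2 28.0% in negative and 18.8% in positive cells, and Igf2bp3 28.1% in negative and 20.8% in positive cells. Of 13 mesenchymal and smooth muscle markers that could be called, 7 were higher in negative cells, where Igf2bp2 and Igf2bp3 had their larger values, and 0 lower. Over all genes that could be called the shares were 15.2% and 14.9%. The other 6 were not past the rule, and of these Col1a2, Lum and Dcn had their larger value in positive cells. Twist1 and Myh11 were at 0 in positive cells, but with 24 and 6 counts in negative cells they were below the filter. The part of these markers in the IGF2BP values was not tested.

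**Figure D4:**
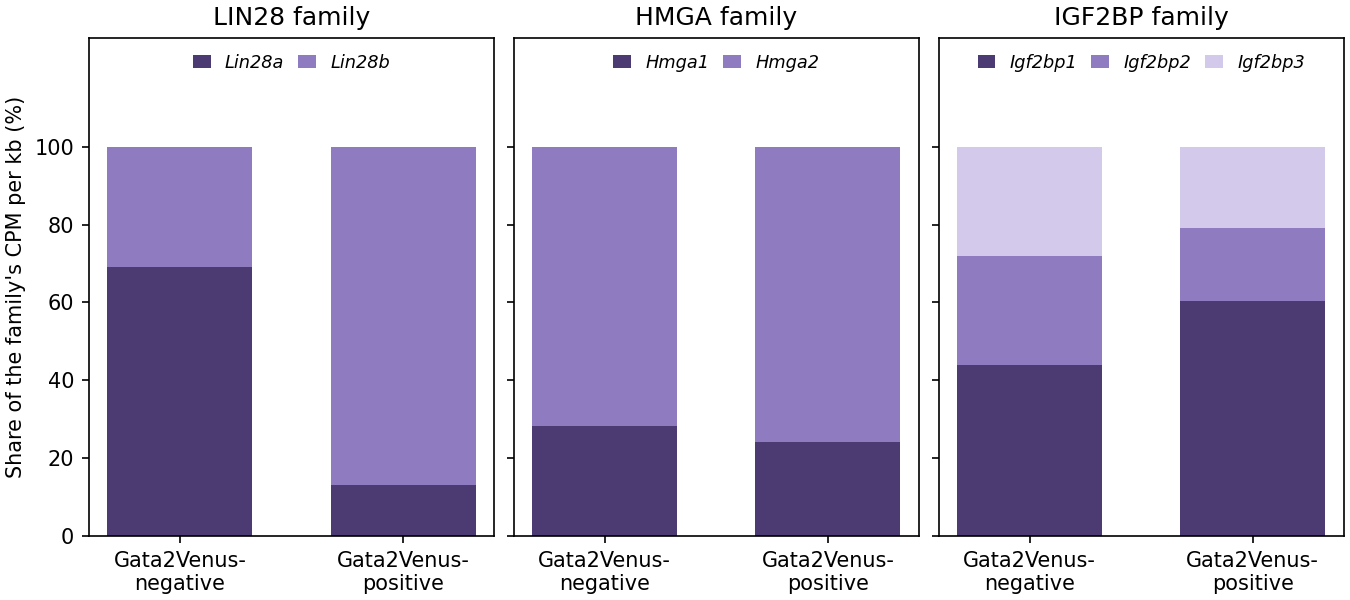
Share of each gene in the summed CPM per kilobase of its family, in percent, in the Gata2Venus-negative (left bar) and Gata2Venus-positive library. Lin28a is 69.2% of the LIN28 pair in negative against 13.1% in positive cells, Igf2bp1 43.9% (negative) and 60.5% (positive) of the IGF2BP genes, and the HMGA bars differ least.

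Levels of different genes were set side by side only as CPM per kilobase of annotated exon. In the negative library the order was Igf2bp1 (51.7), Igf2bp3 (33.1), Igf2bp2 (32.9), Lin28a (14.2), Hmga2 (13.1), Lin28b (6.35) and Hmga1 (5.20). The intervals of Igf2bp3 and Igf2bp2 overlapped there, as did those of Lin28a and Hmga2 and those of Lin28b and Hmga1. In the positive library the order was Igf2bp1 (65.5), Igf2bp3 (22.5), Igf2bp2 (20.3), Hmga2 (18.6), Lin28b (7.36), Hmga1 (5.92) and Lin28a (1.11). There the intervals of Igf2bp2 and Hmga2 and those of Lin28b and Hmga1 overlapped. By this length Lin28a came just above Hmga2 in the negative library and last in the positive, and the other 6 genes kept their order. With the length of the longest transcript instead, 3 neighbouring pairs changed places. In the negative library Igf2bp3 (62.2) passed Igf2bp1 (59.7), and Hmga2 (23.3) passed Lin28a (16.2). In the positive library Hmga2 (33.0) passed Igf2bp2 (30.4), so the order of these pairs depends on the length used, while Lin28a was last in the positive library by both lengths.

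**Figure D5:**
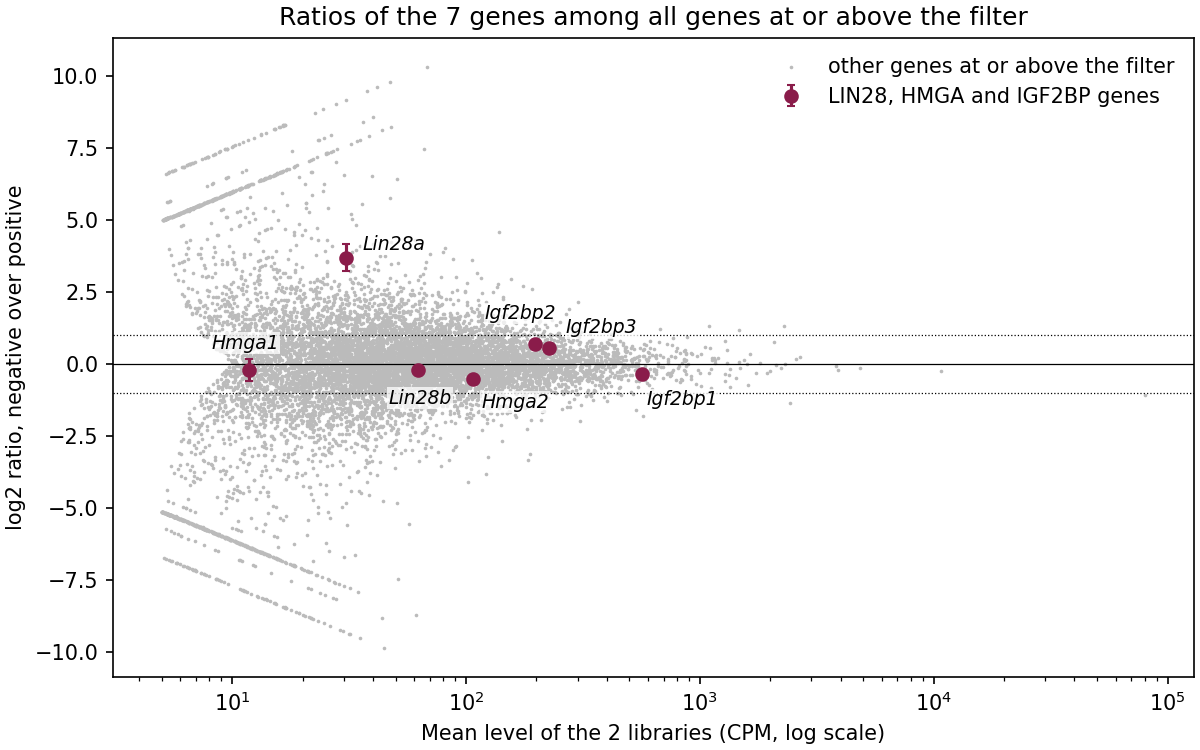
Log2 ratio of negative over positive against the mean level of the 2 libraries (CPM, log scale) for the genes that could be called (grey) and the 7 genes (purple, with 95% counting intervals). Dotted lines mark 2-fold, and genes at 0 in one library are drawn with 3 counts there, which gives the slanted lines. Lin28a lies at 3.68 and the other 6 genes between −0.50 and 0.70.

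Genes that act with LIN28 or process let-7 mostly did not pass the rule: of 20 that could be called 1 was higher in the negative library, 2 were lower and 17 did not pass. Not passing does not mean within 2-fold. Picked out by their values, Prkra (2.10-fold) and Msi2 (2.63-fold) were higher in the negative library. Ago1 (2.08-fold) and Zcchc11 (2.11-fold) were lower, and the intervals of all of these were not clear of 2-fold. Over all genes that could be called, 15.2% were higher and 14.9% lower. The median log2 ratio of the 20 was −0.38. Ago2, the slicing Argonaute protein, was 2.80-fold lower in the negative library (negative 38.3, positive 107 CPM), and Khsrp, which promotes let-7 maturation, was 3.33-fold lower (negative 8.84, positive 29.4 CPM). The RNA-binding protein gene Msi1 was 2.94-fold higher (negative 17.1, positive 5.82 CPM). Chosen after their values were seen, the genes of the enzymes that LIN28 recruits to let-7 precursors were not past the rule: the uridylyl transferase genes Zcchc11 (negative 30.1, positive 63.5 CPM) and Zcchc6 (negative 72.2, positive 86.2 CPM), and Dis3l2 (negative 43.9, positive 79.0 CPM), whose product degrades uridylated precursors.

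Of 29 other let-7 target genes that could be called, 2 were higher in the negative library, 8 lower and 19 did not pass the rule. The shares over all genes that could be called were 15.2% higher and 14.9% lower, and the list was not tested against them. The median log2 ratio of the 29 was −0.52. The insulin receptor gene Insr had 0 counts in negative against 270 in positive cells, 99.1-fold lower in the negative library when 0 is set to 3 counts. The exact interval of its log2 ratio lies below −6.32. The cell cycle transcription factor gene E2f2 had 1 count in negative and 204 in positive cells (log2 ratio −7.81, interval −13.12 to −5.32), and Plag1, a growth-related zinc finger factor, 2 in negative and 113 in positive cells (log2 ratio −5.96, interval −9.02 to −4.07). The cell cycle phosphatase gene Cdc25a was 28.2-fold lower (negative 3.46, positive 97.6 CPM). The 2 higher ones, picked out by their values, were the transcriptional repressor gene Hic2 (11.7-fold) and the zinc finger gene Plagl2 (2.32-fold). Nr6a1, a listed target also picked out by its values, had 83 counts in negative against 1 in positive cells. At 7.97 CPM in negative cells it was below the filter and could not be called. In the insulin-like growth factor axis 4 of 14 genes were lower in negative cells and 0 higher (median −0.46). These were Insr and Plag1 again, the receptor substrate gene Irs2 (3.28-fold, negative 4.03, positive 13.2 CPM) and the growth factor gene Igf1 (2.20-fold, negative 85.7, positive 188 CPM).

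Of 11 genes of mRNAs bound by IGF2BP proteins that could be called, the Hedgehog effector gene Gli1 was higher in the negative library (4.60-fold, negative 15.6, positive 3.38 CPM), 0 were lower and the median was −0.18. The fetal growth factor gene Igf2 was at 990 CPM in negative and 1709 CPM in positive cells and Actb at 9846 CPM in negative and 11734 CPM in positive cells, neither past the rule. IGF2BP proteins also read N6-methyladenosine (m6A), and of 16 genes of writers, erasers and readers of that mark 1 was lower in negative cells and 0 higher (median 0.11). It was the reader gene Ythdf1, 3.56-fold lower (negative 18.9, positive 67.4 CPM), while the most abundant readers Hnrnpa2b1 (negative 1270, positive 1424 CPM) and Hnrnpc (negative 467, positive 383 CPM) were not past the rule. Among 14 other HMG chromatin proteins 1 was higher and 0 lower (median 0.16). The most abundant of them, Ssrp1 (negative 929, positive 590 CPM) and Hmgn1 (negative 313, positive 263 CPM), were not past the rule. LIN28 proteins carry a cold shock domain, and 5 other genes of such proteins could be called. Of these Csdc2 had 174 counts in negative and 0 in positive cells, 52.7-fold higher in the negative library when 0 is set to 3 counts. The exact interval of its log2 ratio lies above 5.41. Ybx3 was 4.19-fold lower (negative 8.36, positive 35.0 CPM), and 3 were not past the rule. Over these lists 97 genes could be called, 6 of them higher in negative cells and 13 lower, against 15.2% and 14.9% of all genes that could be called.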

How the data were processed

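The deposited values are whole-number counts per gene symbol, 1 table per library. Per the labels' protocols, RNA was extracted with the mirVana kit and amplified by SMARTER. TopHat, Cufflinks, HTSeq and mm10 are named per the submitters' processing notes. The sources used here give no versions, annotation or strand use. No molecular identifiers are named in the labels, so intervals cover counting error only and can be too narrow. Rows for reads assigned to no gene, with 45.5% (negative) and 48.2% (positive library) of all counts in alignments that are not unique, were left out.

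Counts were scaled by TMM (factors 1.03 for the negative and 0.974 for the positive library; edgeR 4.0.16, R 4.3.3). edgeR's quasi-likelihood test cannot be fitted with 1 library per group, so the rule of size replaced it. Ratios have exact Clopper-Pearson intervals given the gene's total, and levels exact Poisson intervals. Ratios of genes at 0 in 1 library set 0 to 3 counts there, which is a convention and not a bound of the 95% interval. Exon lengths come from GENCODE vM21, matched by symbol for 94.5% of genes.

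The 7 genes and the lists were chosen with earlier results of these data known. Genes of each list were named by rule: up to 4 past the rule of size whose interval lay farthest from equal expression, and the 2 most abundant where fewer than 2 passed. Some of these are not reported here. Germ cell markers and the Hmga2 pseudogene named beside the 7 genes were chosen after their values were seen. Alternatives were 4 other scalings (total counts, DESeq2 1.42.0 size factors, and TMM without 100 abundant genes or without ribosomal, mitochondrial, small RNA and predicted genes), thinning, 3 filters, 2 ratio limits, an assumed variation of 0.4 and 0.5 added counts. Dropping genes with at most 3 counts in either library, and dropping Hmga1, were added after seeing the data.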

Additional observations from a re-analysis of the deposited data

How the results depend on the processing

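Lin28a was past the rule in 11 of 11 other settings, and the other 6 genes were past it in 0 of 66 values. All settings use the same 2 libraries. The 4-fold limit, the 50 CPM filter and the assumed variation only tighten the rule. The looser filters change no ratio of genes already above the filter. These settings could therefore not bring the other 6 genes past the rule. For Lin28a the looser filters and the 2-fold limit without the interval could not take it below the rule. Passing them therefore adds no support. The scalings shifted ratios by little beside the lower end of its interval, 3.23, so they could hardly fail it either. The log2 ratio of Lin28a ranged over 3.66 to 3.76 across scalings, thinning and 0.5 added counts, that of Hmga1 over −0.22 to −0.11, and no ratio of the 7 genes changed sign. The median of the 7 is the ratio of Hmga1, the least certain of them, and without Hmga1, an alternative added after seeing the data, it was 0.17. Counts over all genes moved more. The number lower in the negative library was 2484 with a filter of 1 CPM and 10 counts and 2503 with no filter. With 50 CPM 629 genes were higher and 545 lower, beyond 4-fold 744 and 751, and with a variation of 0.4 (coefficient) assumed for each library 641 and 683, against 1582 and 1545. Of the genes in the lists, 19 were past the rule, against 9 with 50 CPM, 7 beyond 4-fold and 6 with the assumed variation. Scaling by total counts moved the median ratio of all genes by 0.08. Depth limits Lin28a most in the positive library, where it rests on 42 counts.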

Other observations

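Genes other than the 7 were also grouped by the number of let-7 seed matches (CTACCTC) in the 3′ UTR of their longest coding transcript, a grouping added after the data were seen. Of 8815 callable genes with no match, 15.04% had their higher value in negative cells past the rule and 14.5% their lower. Of 912 genes with 1 match the shares were 14.9% and 17.2%, and of 111 genes with 2 matches 16.2% and 14.4%. Median log2 ratios were 0.0023, −0.0023 and −0.04. Genes with 3 or more matches numbered 16, with a median of 0.47, of which 4 were higher and 3 lower. Those higher were Trim6 (15.2-fold, with 6 matches), Hic2 (11.7-fold, 4 matches), Zbtb37 (3.24-fold, 4 matches) and Nudt12 (136 counts in negative, 1 in positive cells, 7 matches), and those lower were Zkscan2 (7.74-fold), D1Ertd622e (3.06-fold) and Ago2 (2.80-fold), with 3 matches each. Genes with matches were past the rule in both directions, and the classes were not tested against each other.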
